A study of Mus musculus with 22 samples.

Results

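In lungs of mice treated with ABT-263, Mcidas RNA fell into 2 separate ranges, and the lungs with the higher level are described here against those with the lower level. ABT-263 (navitoclax) is a senolytic that blocks survival proteins of the BCL-2 family, namely BCL-2 itself, BCL-XL and BCL-W. Only the 11 of 22 libraries titled ABT-263 were divided. The groups were chosen by the measured Mcidas level in CPM, a raw count as a share of the library's total, scaled to 1e+06. A library with 3 CPM or more was placed in the high group, and any other in the low group. This gave 5 high libraries (3 normoxia, 2 hypoxia) and 6 low libraries (3 normoxia, 3 hypoxia). The other 11 libraries, titled vehicle (5 normoxia, 6 hypoxia), were not used by the rule.

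Each library holds whole-lung RNA of a young male C57BL6/j mouse. The mice spent 8 days in hypoxia or normoxia and received ABT-263 at 50 mg/kg/day, or its vehicle. The labels distinguish lungs by oxygen and drug and do not name the split, so high and low are groups made from a measured value. Because Mcidas was measured in the same libraries as every other gene, differences between high and low lungs are given as sizes with standard errors and without p values. Genes are called higher or lower where the fit with oxygen as a covariate put their adjusted p under 0.05, which serves only to order them. In whole lung, fewer cells of a type and less RNA per cell cannot be told apart.

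Mcidas encodes multicilin, a nuclear coiled-coil protein of the geminin family that starts the multiciliated cell programme. With its relative GEMC1 (Gmnc) acting upstream, it binds E2F4 or E2F5 and their partner DP1 and switches on genes for centriole amplification. Airway multiciliated precursors then build many centrioles around deuterosomes, using proteins of the centriole duplication and mitotic machinery without dividing, and afterwards assemble motile axonemes under Foxj1 and the Rfx factors. Mcidas, Ccno and Foxn4 mark the early steps, whereas axoneme genes mark mature ciliated cells.

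The promoters of 3 neighbouring genes at the Mcidas locus and of 3 further genes that were higher in the high lungs are shown, because their motifs are referred to below. Each runs 5′ to 3′ on the gene's strand from 250 bases before to 50 bases after the start (RefSeq, GRCm38.p6). The windows are chr13:112993618-112993917 (plus strand) for Mcidas, chr13:112987552-112987851 (plus) for Ccno, chr13:113035129-113035428 (plus) for Cdc20b, chr9:15627797-15628096 (minus) for Deup1, chr2:125625064-125625363 (minus) for Cep152 and chr17:56303087-56303386 (plus) for Uhrf1. Capitals mark matches on either strand to an X-box (GTTGCC, any 2 bases, then GG, the kind of element read by Rfx factors) or to an E2F element (TTTNNCGC).
Mcidas: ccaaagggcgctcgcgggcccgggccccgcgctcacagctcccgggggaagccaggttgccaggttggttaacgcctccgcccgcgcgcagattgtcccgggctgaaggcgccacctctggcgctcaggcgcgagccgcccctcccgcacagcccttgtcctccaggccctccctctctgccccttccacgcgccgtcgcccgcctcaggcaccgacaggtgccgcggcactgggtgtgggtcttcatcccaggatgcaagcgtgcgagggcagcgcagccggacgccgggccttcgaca
Ccno: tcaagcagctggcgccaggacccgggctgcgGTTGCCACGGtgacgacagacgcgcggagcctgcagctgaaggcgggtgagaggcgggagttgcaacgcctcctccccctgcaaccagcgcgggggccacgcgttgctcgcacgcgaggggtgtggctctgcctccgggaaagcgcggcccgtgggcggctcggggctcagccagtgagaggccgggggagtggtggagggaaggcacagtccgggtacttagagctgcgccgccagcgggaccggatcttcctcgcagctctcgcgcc
Cdc20b: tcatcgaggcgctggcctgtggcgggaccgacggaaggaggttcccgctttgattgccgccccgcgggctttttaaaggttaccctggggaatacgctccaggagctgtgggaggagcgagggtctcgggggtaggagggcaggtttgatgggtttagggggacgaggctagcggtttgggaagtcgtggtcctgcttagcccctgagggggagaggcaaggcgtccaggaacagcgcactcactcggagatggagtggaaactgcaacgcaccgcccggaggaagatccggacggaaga
Deup1: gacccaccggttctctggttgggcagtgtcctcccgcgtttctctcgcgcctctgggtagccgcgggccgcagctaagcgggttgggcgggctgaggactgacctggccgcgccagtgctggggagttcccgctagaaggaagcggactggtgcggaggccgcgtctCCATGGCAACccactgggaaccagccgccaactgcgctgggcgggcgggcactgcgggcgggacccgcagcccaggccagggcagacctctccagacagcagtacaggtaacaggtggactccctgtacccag
Cep152: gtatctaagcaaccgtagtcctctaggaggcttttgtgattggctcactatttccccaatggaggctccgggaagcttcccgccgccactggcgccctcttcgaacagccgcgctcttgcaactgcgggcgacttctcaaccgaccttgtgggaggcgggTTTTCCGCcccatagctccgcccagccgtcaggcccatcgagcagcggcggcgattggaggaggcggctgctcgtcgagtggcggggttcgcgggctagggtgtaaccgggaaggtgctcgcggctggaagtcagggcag
Uhrf1: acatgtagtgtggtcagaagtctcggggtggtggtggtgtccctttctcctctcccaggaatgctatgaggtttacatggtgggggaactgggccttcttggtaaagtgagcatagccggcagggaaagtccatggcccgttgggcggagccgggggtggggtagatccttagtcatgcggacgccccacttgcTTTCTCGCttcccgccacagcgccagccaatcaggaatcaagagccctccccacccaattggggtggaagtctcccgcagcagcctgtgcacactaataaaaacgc
Ccno carried an X-box match at position −219 from the start, and Deup1 carried one on the opposite strand at −83. Cep152 and Uhrf1 carried an E2F match, at −90 and −56. Neither motif was found in the Mcidas and Cdc20b windows. Where a gene had several RefSeq windows, the one with the most X-box matches, then E2F matches, is shown. A match in a window shown may therefore reflect this choice.

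Mcidas itself stood at 18.5, 19.9 and 18.1 CPM in normoxia replicates 1, 2 and 6 and at 5.15 and 5.11 CPM in hypoxia replicates 1 and 4 of the high group. In the low group it ran from 0.489 through a median of 0.907 to 1.14 CPM. No library lay near the threshold of 3 CPM: the lowest high library had 5.11 CPM and the highest low library 1.14 CPM. The 11 vehicle libraries lay between 0.393 and 1.71 CPM, so they overlapped the low lungs and none reached the high lungs. In counts, the high lungs had 70 to 292 Mcidas counts each and the low lungs 6 to 17.

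**Figure D1:**
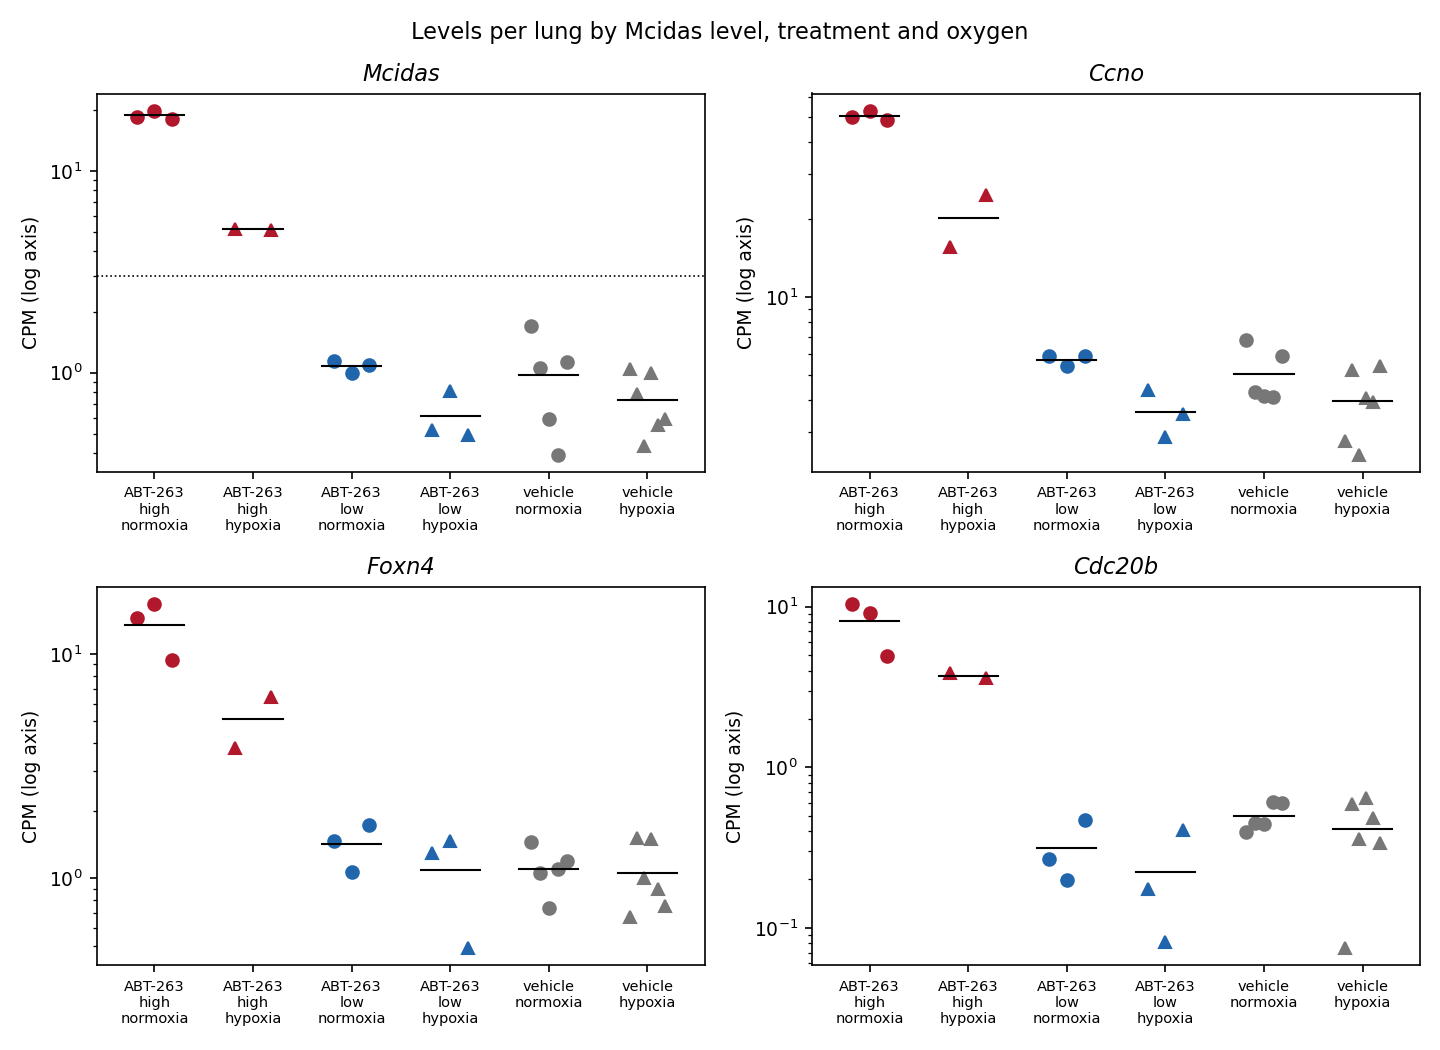
CPM (log axis) of Mcidas, Ccno, Foxn4 and Cdc20b in each lung, by Mcidas level, treatment and oxygen. Each point is a library, short lines are group means and the dotted line is the threshold of 3 CPM. The high lungs lie above every low and every vehicle lung for all 4 genes, and high normoxia lungs lie above high hypoxia lungs.

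Library totals lay between 11509007 and 15744193 counts, and no pair of libraries in a group agreed within sampling noise. In 3 libraries the title and the treatment tag name different treatments. Among them, 2 are high lungs (normoxia replicate 1 and hypoxia replicate 1, tagged as vehicle) and 1 is a vehicle lung (hypoxia replicate 1, tagged as ABT-263). Titles were followed here. By the tags, these 2 high lungs would be vehicle lungs, and it would not hold that no vehicle lung reached the high lungs. Of the other high lungs, normoxia replicate 2 stood apart by skeletal muscle RNA: Acta1 was 652 CPM and Myh4 582 CPM there, against at most 0.5502 CPM of Acta1 and 0 of Myh4 elsewhere. The summed level of 10 skeletal muscle and thyroid genes was 29.1 to 2510 CPM in high, 23.8 to 37.9 CPM in low and 30.6 to 48.4 CPM in vehicle lungs, and Ckm was 479 CPM in that library against 17.6 to 41.1 CPM in the others. Haemoglobin genes took 0.364% to 0.913% of counts in high and 0.343% to 1.44% in low lungs. Normalization factors (TMM) were above 1 in every high library (1.016 to 1.045) and below 1 in every low library (0.957 to 0.991), so raw CPM ratios are slightly larger than the fitted differences.

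Of 16674 genes other than Mcidas, 69 (0.414%) were called higher and 19 (0.114%) lower in the high lungs, and 46 (0.276%) and 1 (0.006%) of these by at least 2-fold. In CPM, 181 genes (1.09%) were higher and 15 (0.09%) lower without overlap between the groups, and in TMM-scaled CPM 101 (0.606%) and 46 (0.276%). Of the called genes, 52 (0.312%) higher and 7 (0.042%) lower did not overlap in CPM. The rule used these libraries, so nothing is read from the shares. Scaled to library totals without TMM, 166 were called higher and 14 lower. Without normoxia replicate 2, 66 were called higher and 10 lower. Without the 2 high libraries tagged as vehicle, 273 were called higher, which included 67 of the 69, and 38 lower, which included 11 of the 19. Of the 69, 34 had a mean under 3 CPM in low lungs. In 47 of the 69 every vehicle library also lay below every high library. This was not counted over all genes, and the 69 were picked as higher in these same high libraries. Nothing is therefore read from that count. The lists of fate regulators, deuterosome, mitosis and replication genes held 19 of the 69. The median log2 difference over all genes was −0.013.

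Among fate regulators, Ccno and Foxn4 had the largest differences. Of 16 tested besides Mcidas, 3 were called higher (Ccno, Foxn4 and Myb), beside 0.414% of all genes, and none lower. The list's median was 0.12. That median was 0.065 without hypoxia replicate 4 and 0.19 without hypoxia replicate 1. Ccno, cyclin O, which is needed for centriole amplification, had 50.1, 52.9 and 48.6 CPM in high normoxia and 15.6 and 24.9 CPM in high hypoxia lungs. In low lungs it ran from 2.85 through 4.87 to 5.89 CPM, a log2 difference of 2.81 ± 0.15 (SE). The groups did not overlap, and each high normoxia lung lay above both high hypoxia lungs. Foxn4, a forkhead factor of early multiciliated differentiation in the frog, had 14.4, 16.6 and 9.35 CPM in high normoxia and 3.82 and 6.41 CPM in high hypoxia lungs, against 0.489 through 1.39 to 1.72 CPM in low lungs. Its difference was 2.77 ± 0.27, again without overlap.

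Gmnc, which acts upstream of Mcidas, was not called, although its difference exceeded that of Myb. It had 8.07, 14.5 and 23.2 CPM in high normoxia and 7.21 and 11.02 CPM in high hypoxia lungs, against 3.18 through 4.88 to 9.06 CPM in low lungs (1.04 ± 0.25). The groups overlapped, and the difference was 0.92 ± 0.40 within normoxia and 1.25 ± 0.26 within hypoxia. Normoxia replicate 1, with the second highest Mcidas level, had the lowest Gmnc level of the high normoxia lungs. Without that library the Gmnc difference was 1.23 and passed the threshold. Myb, a transcription factor of early multiciliated precursors, was 70.3, 64.3 and 68.3 CPM in high normoxia and 31.02 and 41.5 CPM in high hypoxia lungs, against 25.3 through 32.3 to 35.3 CPM in low lungs. Its difference was 0.63 ± 0.13, with 0.94 within normoxia and 0.25 within hypoxia, and the groups overlapped. The call on Myb was lost when any of 7 libraries was left out, including normoxia replicate 2 (0.63).

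Later and upstream regulators were not called. Foxj1, which drives motile axoneme genes, had 357, 284 and 251.1 CPM in high normoxia and 137 and 225 CPM in high hypoxia lungs, against 162 through 207 to 232 CPM in low lungs. The difference was 0.16 ± 0.13. It was 0.31 ± 0.13 within normoxia and 0.007 ± 0.186 within hypoxia. Trp73, an upstream regulator, differed by −0.12 ± 0.18, Rfx2 by 0.00 ± 0.10, Rfx3 by −0.05 ± 0.10 and E2f4, the partner of multicilin, by 0.07 ± 0.07. Tfdp1, which encodes the partner DP1, was not called at 0.37 ± 0.10.

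Deuterosome and centriole genes were among the largest differences. Of 30 on the list, 8 were called higher and none lower, and 25 lay above 0. Over all genes 0.414% were called higher and 45.8% lay above 0. The list's median was 0.31 (0.23 without normoxia replicate 2), with 0.43 within normoxia and 0.14 within hypoxia. Cdc20b, a deuterosome protein involved in releasing new centrioles, had 10.3, 9.16 and 4.94 CPM in high normoxia and 3.87 and 3.58 CPM in high hypoxia lungs, against 0.0814 through 0.234 to 0.4703 CPM in low lungs. At 4.38 ± 0.31 it was the largest difference among the 69. Its low lungs averaged 0.267 CPM, under the filter of 0.5 CPM, so Cdc20b was kept only through the high lungs. The size of a ratio to so low a level is uncertain. Deup1, the scaffold of the deuterosome, had 70.1, 73.2 and 37.8 CPM in high normoxia and 29.3 and 30.8 CPM in high hypoxia lungs, against 6.93 through 8.27 to 10.1 CPM in low lungs (2.36 ± 0.25). Both genes left a clear gap between the groups.

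The procentriole assembly factor Stil had 16.4, 15.4 and 9.699 CPM in high normoxia and 6.76 and 8.43 CPM in high hypoxia lungs, against 0.599 through 1.901 to 2.36 CPM in low lungs (2.71 ± 0.34). Plk4, the kinase that starts centriole duplication, had 9.72, 13.3 and 6.98 CPM in high normoxia and 6.47 and 7.64 CPM in high hypoxia lungs, against 1.33 through 2.52 to 3.995 CPM in low lungs (1.76 ± 0.27). Within normoxia and hypoxia, the difference was 3.59 and 1.77 for Stil and 2.46 and 0.98 for Plk4. Smaller differences were seen for Poc1a, a centriole stability protein (1.02 ± 0.13), Cep152, the scaffold that recruits Plk4 (0.77 ± 0.14), and the daughter centriole protein Cntrob (0.67 ± 0.14, overlapping). Sass6, the cartwheel protein, was not called at 0.40 ± 0.23. The centrin gene Cetn2 was −0.08 ± 0.10 and the centriolar satellite gene Pcm1 0.11 ± 0.09, and neither was called.

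Further centriole genes outside the list were found among the 69 and were chosen after their values were seen. Hyls1, a centriole protein needed for cilia, had 28.8, 40.04 and 21.4 CPM in high normoxia and 17.3 and 20.1 CPM in high hypoxia lungs, against 5.55 through 6.898 to 10.8 CPM in low lungs (1.69 ± 0.23). Tube1, epsilon-tubulin, and Tedc1, its complex partner, differed by 1.56 ± 0.22 and 1.57 ± 0.22, and Cep41 by 0.67 ± 0.14. Pidd1, the core of the PIDDosome, a complex that responds to extra centrosomes, had 6.05 to 10.8 CPM in high and 3.02 to 4.26 CPM in low lungs (1.14 ± 0.15).

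**Figure D2:**
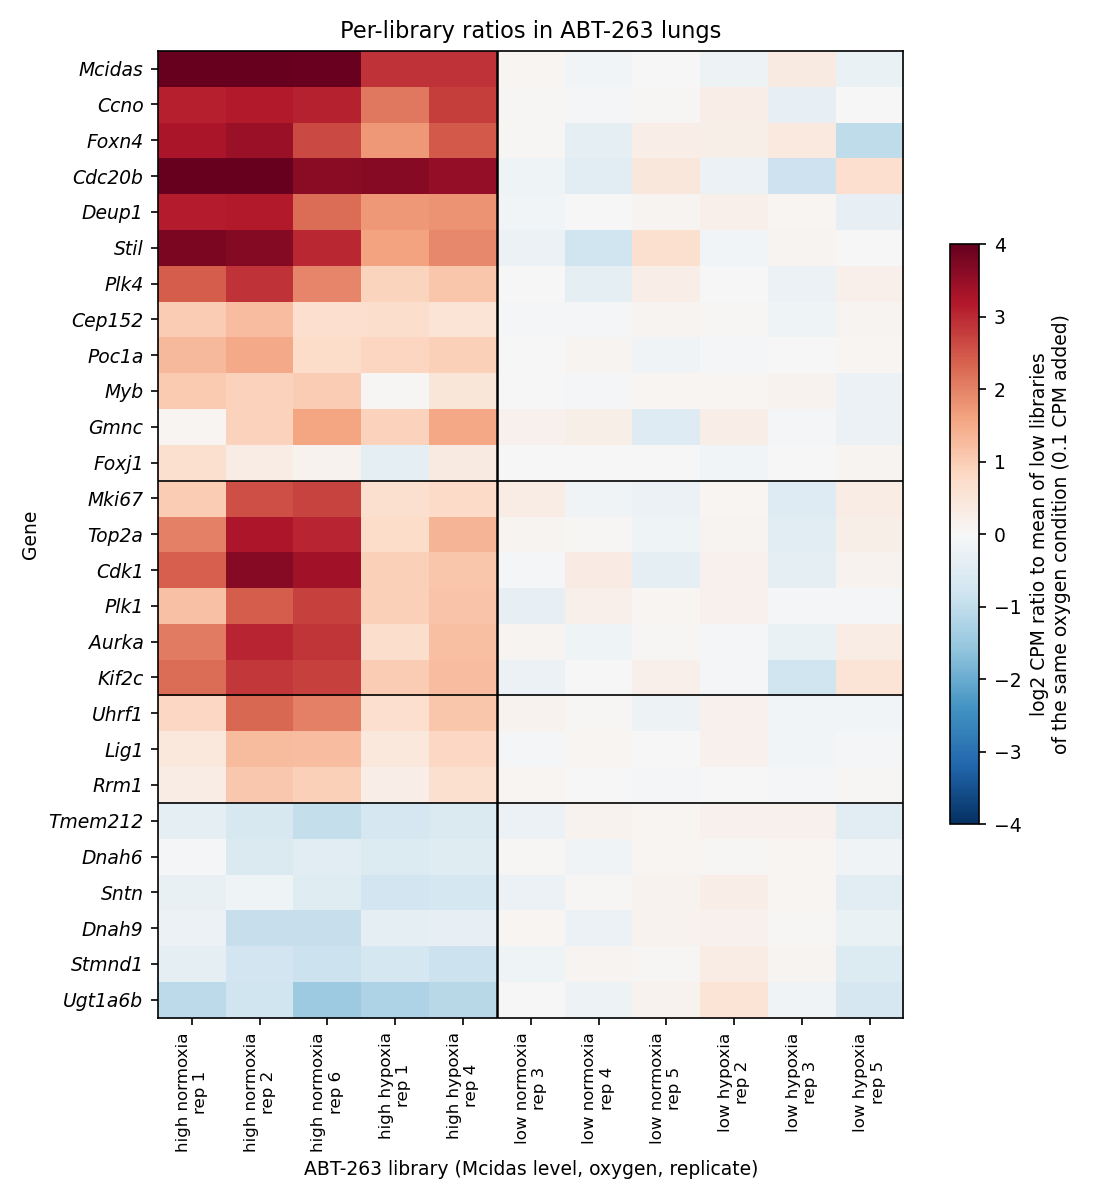
Log2 ratio of CPM (0.1 CPM added) in each ABT-263 library to the mean of the low libraries of the same oxygen condition, for fate and centriole genes, mitosis genes, replication genes and genes that were lower. The colour scale ends at ±4. Centriole genes are high in all 5 high lungs, and normoxia replicate 1 is paler for mitosis and replication genes than normoxia replicates 2 and 6.

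Other large differences, in genes of varied function, followed. Shisa8, related to proteins that accompany glutamate receptors, had 5.91, 4.63 and 4.67 CPM in high normoxia and 2.13 and 2.23 CPM in high hypoxia lungs, against 0.0815 to 0.400 CPM in low lungs (3.98 ± 0.27). Fbxo43, an inhibitor of the anaphase-promoting complex known from eggs, differed by 2.67 ± 0.35, and Ybx2, an RNA-binding protein of germ cells, by 1.90 ± 0.28. The spindle proteins Ckap2l and Spag5 differed by 2.28 ± 0.35 and 1.99 ± 0.35, Ccdc18 by 1.81 ± 0.24 and the atypical E2F repressor E2f7 by 1.80 ± 0.31. The fit assumes the same difference in both oxygen conditions. Within normoxia and hypoxia it was 3.12 and 1.35 for Ckap2l, 3.02 and 0.91 for Spag5, and 2.70 and 0.85 for E2f7. For Fbxo43 it was 3.41 and 1.61, and for Shisa8 4.07 and 3.845. Fgl1, a secreted fibrinogen-like protein, was 7.28 CPM in normoxia replicate 2 and 1.62 to 2.67 CPM in the other high lungs, against 0.134 to 0.733 CPM in low lungs. Its difference was 2.55 ± 0.44 with that library and 2.12 without it. Low lungs averaged 0.208 CPM of Shisa8, 0.356 CPM of Fbxo43 and 0.470 CPM of Fgl1. These means are under the filter of 0.5 CPM, so the 3 genes were kept only through the high lungs.

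Mitosis genes lay above 0 throughout, with wide spread. This held for all 32 tested, beside 45.8% of all genes, and 5 were called higher, beside 0.414%. Their median was 1.59, and 1.42 without normoxia replicate 2. Aurka, a spindle pole kinase, had 11.1, 21.9 and 19.3 CPM in high normoxia and 9.71 and 13.8 CPM in high hypoxia lungs, against 2.26 through 3.85 to 7.26 CPM in low lungs (1.85 ± 0.33). Kif2c, a microtubule-depolymerising kinesin, differed by 1.89 ± 0.29, Plk1, a mitotic kinase that also acts at centrioles, by 1.67 ± 0.29, and the kinetochore genes Cenpe and Ndc80 by 1.51 ± 0.29 and 1.29 ± 0.24. The call on Aurka was lost when any of 7 libraries was left out.

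The classical proliferation markers were not called. Mki67 had 15.2, 44.6 and 49.05 CPM in high normoxia and 42.4 and 45.9 CPM in high hypoxia lungs, against 6.35 through 14.1 to 33.2 CPM in low lungs (1.47 ± 0.41). The lowest Mki67 value among the high lungs was that of normoxia replicate 1, which lay inside the range of the low lungs. Top2a, the topoisomerase of dividing cells, had 29.7, 70.2 and 61.7 CPM in high normoxia and 37.05 and 56.98 CPM in high hypoxia lungs, against 6.43 through 12.1 to 25.9 CPM in low lungs (1.97 ± 0.40). Cdk1 differed by 2.11 ± 0.45 and Ccnb1 by 2.19 ± 0.46. The mitosis list's median was 2.33 within normoxia and 0.79 within hypoxia.

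**Figure D3:**
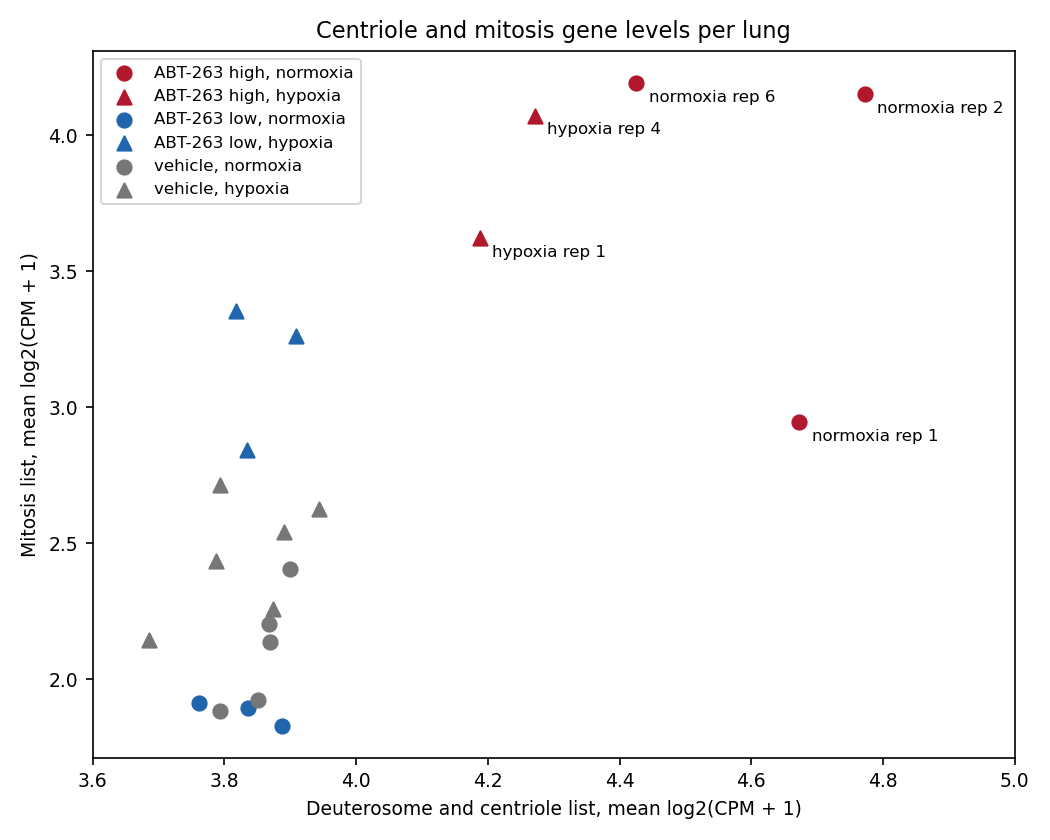
Mean log2(CPM + 1) of the mitosis list against that of the deuterosome and centriole list, each point a library. The 5 high lungs lie to the right at 4.188 to 4.772, apart from low (3.761 to 3.909) and vehicle lungs (3.686 to 3.943), and normoxia replicate 1 combines a centriole value of 4.673 with a mitosis value of 2.945.

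Centriole and mitosis levels did not move in step among the high lungs, as seen in normoxia replicate 1, a single library whose tag names vehicle. Normoxia replicate 1 had the second highest centriole score and the lowest mitosis score of the high lungs (2.945), below those of 2 low hypoxia lungs, the higher of which reached 3.356. The other high lungs had mitosis scores of 3.623 to 4.193. Low lungs had mitosis scores of 1.83 to 1.912 in normoxia and 2.844 to 3.356 in hypoxia, so normoxia replicate 1 still lay above every low lung of its own oxygen condition. Vehicle lungs ran from 1.883 to 2.713. Centriole scores of all low lungs lay within the range of the vehicle lungs.

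DNA replication genes followed with smaller differences. Of 34 tested, 32 lay above 0 and 4 were called higher, beside 45.8% and 0.414% of all genes. The list's median was 0.56 (0.76 within normoxia and 0.32 within hypoxia). Uhrf1, which couples DNA methylation to replication, had 7.05, 19.7 and 15.98 CPM in high normoxia and 8.97 and 12.2 CPM in high hypoxia lungs, against 3.37 through 4.75 to 6.34 CPM in low lungs (1.36 ± 0.25). Chaf1b, a histone chaperone, differed by 0.91 ± 0.18, the ligase Lig1 by 0.78 ± 0.14 and the ribonucleotide reductase subunit Rrm1 by 0.59 ± 0.12. Gmnn, geminin, the licensing inhibitor related to multicilin, was −0.01 ± 0.14. The calls on Rrm1 and Chaf1b were each lost when any of 8 libraries was left out, including normoxia replicate 2 (0.50 and 0.84 without it).

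Of the axoneme genes, which mature ciliated cells express, most lay slightly below 0. Of 38 tested, 33 lay below 0, beside 54.2% of all genes, and 5 above. The median was −0.23, and 2 were called lower, beside 0.114% of all genes, and none higher. The median stayed below 0 with each library left out in turn (−0.31 without normoxia replicate 1 to −0.13 without normoxia replicate 6), and was −0.16 under library totals. Tmem212 had 62.6, 52.5 and 42.2 CPM in high normoxia and 66.4 and 71.5 CPM in high hypoxia lungs, against 69.4 through 88.2 to 120.2 CPM in low lungs (−0.71 ± 0.13). Dnah6, an inner arm dynein, had 80.1, 55.3 and 60.7 CPM in high normoxia and 37.4 and 39.6 CPM in high hypoxia lungs, against 49.6 through 67.3 to 87.5 CPM in low lungs (−0.49 ± 0.10). Ranges of both genes overlapped, and the Dnah6 call was lost when any of 9 libraries was left out. The summed level of the list was 1948 to 2806 CPM in high, 1966 to 2909 CPM in low and 2054 to 3063 CPM in vehicle lungs. The members Lrrc23 (0.64 ± 0.21) and Zmynd10 (0.44 ± 0.14) lay above 0 without being called.

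Among genes that were lower, Stmnd1, a stathmin-domain gene, had 32.8, 24.7 and 22.96 CPM in high normoxia and 30.7 and 27.2 CPM in high hypoxia lungs, against 34.2 through 44.5 to 60.6 CPM in low lungs (−0.77 ± 0.14). Ugt1a6b, a glucuronosyltransferase, had 3.15 to 5.09 CPM in high and 5.33 to 12.6 CPM in low lungs (−1.202 ± 0.197). It shares exons with other Ugt1a genes, so its value is uncertain. Bbox1, an enzyme of carnitine synthesis, differed by −0.84 ± 0.18, Ccdc33 by −0.62 ± 0.12 and Bex2 by −0.54 ± 0.10. All 5 genes left the groups without overlap in CPM. Leaving out normoxia replicate 2 ended the calls on Stmnd1 (−0.74) and Bbox1 (−0.75).

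**Figure D4:**
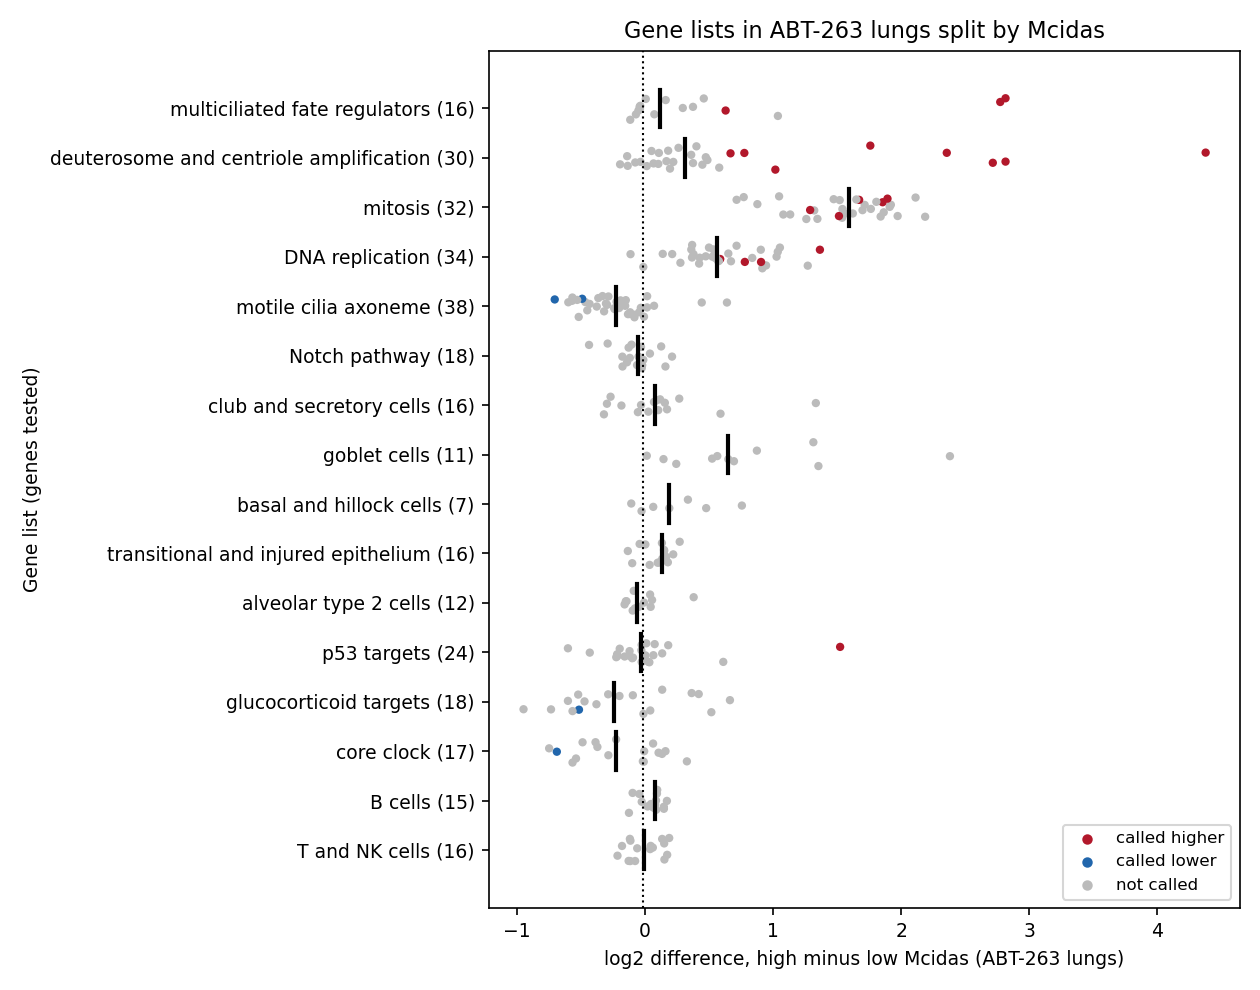
Log2 difference (high minus low) of each tested gene in 16 lists. Each point is a gene, red or blue where called higher or lower, black bars are list medians and the dotted line is the median of all genes. Mitosis genes all lie to the right of it, with a median of 1.59, and most axoneme genes lie to the left.

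Other epithelial lists gave no calls. The club and secretory list had a median of 0.08 over 16 genes, and Scgb1a1, the main club cell secretory protein, took 4.02% to 7.04% of counts in high and 3.47% to 8.31% in low lungs. Within normoxia its share was 7.04%, 4.67% and 5.59% in high and 7.76%, 8.31% and 8.18% in low lungs (log2 difference −0.56 ± 0.18). Cyp2f2, a club cell cytochrome, was −0.66 ± 0.18 within normoxia. Within hypoxia Scgb1a1 was 0.05 ± 0.202 and Cyp2f2 0.13 ± 0.17. Medians were −0.07 for alveolar type 2, −0.15 for alveolar type 1 and 0.13 for transitional epithelium genes. All 11 goblet genes lay above 0, beside 45.8% of all genes. Their median was 0.65, with 1.98 within normoxia and −0.30 within hypoxia. Agr2, which folds mucins, had 24.2, 49.8 and 37.3 CPM in high normoxia and 21.3 and 17.6 CPM in high hypoxia lungs, against 0.871 through 3.900 to 21.03 CPM in low lungs (2.38 ± 0.73, not called). The summed goblet level was 457 to 1091 CPM in high and 75.5 to 1047 CPM in low lungs, so the groups overlapped. Of 18 Notch pathway genes, which restrain multiciliated fate, none was called and the median was −0.06. The target Hey1 was −0.44 ± 0.11 and Hes1 −0.13 ± 0.12.

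No gene of the BCL-2 family, which holds the drug's targets, was called. The median over 16 tested was −0.09. Bcl2 was 15.2 to 25.9 CPM in high and 15.8 to 23.7 CPM in low lungs (0.04 ± 0.10), Bcl2l1, encoding BCL-XL, 97.1 to 137 CPM in high and 109 to 142 CPM in low lungs (−0.20 ± 0.10), and Bcl2l2, encoding BCL-W, 92.8 to 118 CPM in high and 70.2 to 122 CPM in low lungs (−0.08 ± 0.12). Within normoxia Bcl2l1 had 98.6, 97.1 and 99.4 CPM in high and 114, 142 and 117 CPM in low lungs (−0.41 ± 0.101). Within hypoxia its difference was 0.0955 ± 0.13. Means of Bcl2l1 in high, low and vehicle lungs were 98.4, 124.4 and 90.4 CPM in normoxia and 122.1, 111 and 99.35 CPM in hypoxia. The p53 target Cdkn1a was 69.8 to 107 CPM in high and 64.6 to 96.2 CPM in low lungs (0.13 ± 0.13). Of 24 p53 targets only Gtse1, a G2 and M phase gene, was called (1.52 ± 0.32). None of 15 B cell genes was called, with a median of 0.08.

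Of the glucocorticoid targets and the core clock genes, 1 each was called lower, beside 0.114% of all genes. Of 18 glucocorticoid targets 12 lay below 0, beside 54.2% of all genes, and the median was −0.25 (−0.14 without normoxia replicate 4). Sult1a1 was called lower (−0.52 ± 0.10). Tsc22d3, a glucocorticoid-induced leucine zipper protein, had 214, 157 and 236 CPM in high normoxia and 168 and 336 CPM in high hypoxia lungs, against 265 through 367 to 453 CPM in low lungs (−0.73 ± 0.19, not called). Mt2, a metallothionein on the same list, was 0.66 ± 0.22. Of 17 clock genes 12 lay below 0, and the median was −0.23 (−0.13 without normoxia replicate 6). Per2 was called lower (−0.69 ± 0.14). Means in high, low and vehicle lungs were 202, 333 and 189 CPM of Tsc22d3 in normoxia and 252, 381 and 197 CPM in hypoxia. For Per2 they were 12.8, 17.7 and 13.25 CPM, and 14.2, 24.8 and 15.75 CPM. For Sult1a1 they were 57.2, 88.75 and 65.7 CPM, and 52.99, 61.2 and 62.3 CPM. For Tsc22d3 and Per2, low lungs lay further from the vehicle mean than high lungs in both oxygen conditions, and for Sult1a1 in normoxia only. Per2 and Sult1a1 each lost the call when any of 5 libraries was left out, including normoxia replicate 2.

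Mcidas, Ccno and Cdc20b lie next to each other on GRCm38 chromosome 13. Mcidas (ENSMUSG00000074651) spans 112993845 to 113000394 on the plus strand, Ccno (ENSMUSG00000042417) spans 112987802 to 112990777 and Cdc20b (ENSMUSG00000078926) 113035111 to 113091195, both on the plus strand. Within the 250 kb on either side, 7 other genes were tested and none was called. Over all genes 0.414% were called higher and 0.114% lower, so nothing is read from so few. Dhx29, the next measured gene to the left, was 0.01 ± 0.11. Gpx8, inside the span of Cdc20b on the opposite strand, was −0.19 ± 0.07, and Gzma was 0.04 ± 0.30. Esm1, an endothelial proteoglycan 215.8 kb away, was −0.72 ± 0.16 without being called. The library kit keeps strand, but the counting setting is not given in the sources used here, so reads of Cdc20b and of genes opposite it may not be told apart.

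**Figure D5:**
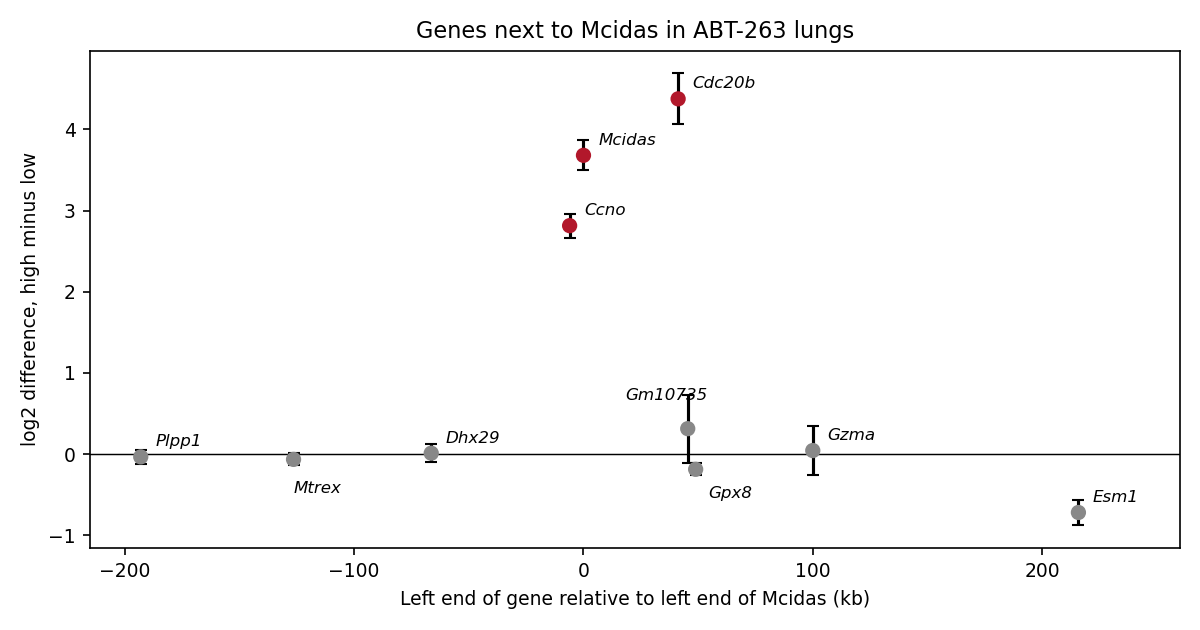
Log2 difference (high minus low, ± SE) of measured genes within 250 kb of Mcidas, by distance in kb. Ccno, Mcidas and Cdc20b (red) lie between 2.81 and 4.38, and the 7 other genes (grey) lie at 0.31 or lower.

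Promoters of the called genes were searched on both strands for 5 motifs, counting overlaps separately. Promoters matched 57 of the 69 higher genes (67 windows) and 16 of the 19 lower genes (17 windows), and all RefSeq windows of that length (32851) were the comparison. That comparison was not limited to the genes tested, and windows rather than genes were counted. The E2F element TTTNNCGC was in 16.4% of windows of higher genes, 0% of lower genes and 5.17% of all windows. The genes with it were Arhgap11a, Cenpm, Cep152, Clspn, E2f7, Fignl1, Lig1, Nup205, Sgo2a and Uhrf1. The X-box was in 8.96% of windows of higher genes (Ccno, Deup1, Ybx2, Cep41 and Tmem54), 5.88% of lower genes and 2.25% of all. The cell cycle homology element TTTGAA was in 19.4%, 11.8% and 17.9%, the MYB element CNGTTA in 31.3%, 23.5% and 23.3%, and CCAAT in 53.7%, 47.1% and 37.4% of these windows. These shares describe letters in windows, not binding, and rest on few genes.

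The vehicle lungs, which the rule did not use, allowed a test of whether the same genes follow Mcidas without the drug. Each gene was fitted on log2(Mcidas CPM + 0.5) with oxygen as a covariate over the 11 libraries, and the slope is the log2 change per unit of that measure. With the quasi-likelihood test of edgeR no gene of 16732 passed the adjusted threshold in either direction (0%), 328 (1.96%) had an unadjusted p under 0.05, and DESeq2 and limma-voom also called 0. Ccno had a slope of 0.50 ± 0.28 (unadjusted p = 0.0943, adjusted p = 1), Stil 0.74 ± 0.38 (unadjusted p = 0.0677) and Foxn4 0.49 ± 0.36 (unadjusted p = 0.193). Deup1 was 0.29 ± 0.23 and Plk4 −0.22 ± 0.26. Of 64 higher genes measured there, 37 had a slope above 0, beside 8519 of all 16732 genes. Cdc20b, Shisa8 and Fbxo43 were too low in these lungs to be fitted. Medians of the lists were 0.01 for deuterosome, 0.14 for mitosis and 0.07 for axoneme genes, beside 0.00 for all genes. The Mcidas measure spanned −0.164 to 1.146 in these lungs, a narrow range at 5 to 26 counts per library. On simulated counts, changes of 2-fold over that whole range were recovered in 67.2% of genes. Those changes followed the measured Mcidas level exactly and were placed only in genes above a minimum level. Counting noise in Mcidas was not simulated, so recovery in these lungs may be lower. The absence of calls therefore does not show that genes fail to follow Mcidas here.

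The study's own contrast, ABT-263 against vehicle averaged over oxygen, shares all 11 ABT-263 libraries with the split. In it, 178 of 16719 genes (1.06%) rose and 228 (1.36%) fell, with 0.05 as the threshold on edgeR's adjusted p. Mcidas was 2.49 ± 0.64 (adjusted p = 0.0474), Ccno 1.89 ± 0.49 (adjusted p = 0.049), Foxn4 2.01 ± 0.51 (adjusted p = 0.0431) and Stil 1.94 ± 0.51 (adjusted p = 0.0498), each just past the threshold. Without the 3 libraries with differing labels all 4 missed it (2.18, 1.63, 1.73 and 1.67). The Mcidas call was also lost when any of 17 of the 22 libraries was left out, the Ccno call for 18, the Foxn4 call for 15 and the Stil call for 18. Cdc20b (2.48 ± 0.72, adjusted p = 0.0764), Deup1 (1.53 ± 0.42, adjusted p = 0.0621) and Plk4 (1.204 ± 0.32, adjusted p = 0.0511) did not pass. These genes were named from the split of the same ABT-263 libraries, so their p values lend it no separate support. Mcidas averaged 13.4 CPM in high, 0.8432 CPM in low and 0.8434 CPM in vehicle lungs. Its averaged difference therefore describes neither kind of treated lung.

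Of the mitosis list, 14 of 32 genes rose under ABT-263, beside 1.06% of all genes, with a median of 1.197. Examples were Kif2c (1.62 ± 0.36, adjusted p = 0.0227) and Cdk1 (1.82 ± 0.42, adjusted p = 0.031). The Cdk1 call was lost when any of 7 libraries was left out (1.595 to 1.94 over all 22). Mean Cdk1 in high, low and vehicle lungs was 39.96, 4.21 and 4.88 CPM in normoxia and 33.7, 16.4 and 8.09 CPM in hypoxia. Mean Kif2c was 7.93, 1.205 and 1.243 CPM, and 6.47, 2.88 and 1.61 CPM. By these means, low lungs lay above vehicle lungs in hypoxia only, and the normoxia rise of both genes was in the high lungs. No axoneme gene of 38 passed (median −0.05), and Foxj1 did not (0.36 ± 0.12, adjusted p = 0.107). Genes that rose or fell in this contrast did not all separate high from low lungs. Cdkn1a rose by 0.57 ± 0.11 (edgeR adjusted p = 0.0101). Beside 1.36% of all genes, 14 of 15 B cell genes and 13 of 16 T and NK cell genes fell, with medians of −0.71 and −0.55. Cd79a, the B cell receptor signalling chain, fell by 0.71 ± 0.09 (adjusted p = 0.000141), while its difference between high and low lungs was 0.08 ± 0.09.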

How the data were processed

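RNA from 22 mouse lungs was measured, per the labels' protocols with a stranded TruSeq mRNA kit on a NextSeq 500. The authors deposited expected counts (RSEM) for each gene, and the submitters' processing notes also name Trimmomatic, STAR and GRCm38, without versions. Expected counts divide reads between similar genes. They were rounded to whole numbers. Of 54532 genes, 54409 identifiers were found in GENCODE M21, used for coordinates.

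Groups follow the titles, and no label pairs libraries. Nothing states separate preparations, so p values measure the spread between these libraries. The members and gene lists were chosen with earlier results of these data known. Genes with a mean of at least 0.5 CPM over the libraries of a fit were kept. Each fit used edgeR 4.0.16 in R 4.3.3 (TMM scaling, robust quasi-likelihood, two-sided) with Benjamini-Hochberg adjustment over all genes tested and 0.05 as the threshold. The fits were high minus low with oxygen as a covariate, the Mcidas slope in vehicle libraries with oxygen as a covariate, and ABT-263 minus vehicle in the 4-group fit. High minus low p values order genes only. Mcidas is left out of counts. Levels are raw CPM, and differences are log2 with standard errors. Median standard errors were 0.111, 0.148 and 0.08. Library totals were 11509007 to 15744193.

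Named genes were 9 fixed ones, the 15 largest called differences in each direction without overlap in CPM and averaging 2 CPM or more where higher (gene models and immune receptor segments left out), and from each list described the 6 members ranked first by p. A part of these is printed. The following were chosen after their values were seen: Cep152, Cntrob, Sass6, Hyls1, Tube1, Tedc1, Cep41, Pidd1, Gtse1, Mki67, Top2a, Cdk1, Ccnb1, Cd79a, list members outside the rule, the muscle genes and the genes named for a promoter motif. Alternatives were DESeq2 1.42.0, limma-voom (limma 3.58.1), other scaling, filters, covariates, splits and labels, and each library left out. On simulated counts, 71.6%, 95.5% and 100% of 1.5-, 2- and 4-fold changes were recovered for high minus low (7 unchanged genes called), 26.9%, 67.2% and 98.5% for the slope (6) and 91%, 98.5% and 100% for ABT-263 (9). Simulated slopes followed the measured Mcidas level without its counting noise, so recovery for the slope may be overstated. In all 3 simulations, changes were placed only in genes above a minimum level, with the spread typical of that level. Recovery may therefore be lower for genes that vary more. In the real high minus low fit, Cdk1, Ccnb1 and Agr2 differed by more than 4-fold and were not called. Figures used matplotlib 3.10.9.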

Additional observations from a re-analysis of the deposited data

Results flagged for a closer look

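Of 96 pairs of a gene shown per library and a group, 5 had a library far from the rest of its group, and chance flags about 1 in 20. In normoxia ABT-263 replicate 2, Acta1 was 651.7 CPM (0 to 0.2093 CPM in the other 5 libraries) and Myh4 was 581.9 CPM (0 in the others). In hypoxia vehicle replicate 5, Acta1 was 0.5502 CPM (0 to 0.197 CPM in the others) and the goblet cell gene Agr2 was 22.97 CPM (4.291 to 10.75 CPM in the others). The chemokine Cxcl5 was 0.7528 CPM in normoxia vehicle replicate 2 (2.043 to 2.387 CPM in the others).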

How the results depend on the processing

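The counts of high minus low (69 higher, 19 lower) were 166 higher with library totals, 287 and 101 with DESeq2, 208 and 70 without a low-count filter, 27 and 2 without the oxygen covariate, 125 higher with normoxia libraries only and 5 and 0 with hypoxia libraries only (added after seeing the data). They were 201 and 35 with log2 Mcidas as a continuous measure, 273 and 38 without the 2 libraries tagged as vehicle and 247 and 53 with all 22 libraries in one fit. The same libraries were split at 2 and 4 CPM. With each library left out in turn the counts were 26 to 143 higher and 4 to 59 lower, lowest without normoxia ABT-263 replicate 4 (26 and 4), and highest without hypoxia ABT-263 replicate 1 (143 higher) or replicate 5 (59 lower). The vehicle slope gave 0 to 1 genes higher and 0 lower with each library left out, and 0 under its other alternatives. ABT-263 minus vehicle (178 higher, 228 lower) gave 432 and 353 with DESeq2, and 40 to 298 higher and 124 to 352 lower with each library left out, lowest without hypoxia ABT-263 replicate 4 and highest without replicate 1. With each library left out, Ccno, Foxn4, Cdc20b, Deup1, Stil, Plk4, Shisa8, Poc1a, Kif2c, Fbxo43, Ybx2, Ccdc18, Hyls1 and Ugt1a6b kept their calls. Cep152, Plk1 and Tmem212 lost theirs without any of 3 libraries, Fgl1 2, Bex2 4, Uhrf1, Lig1, Ckap2l, Spag5, Stmnd1 and Ccdc33 6, Chaf1b and Rrm1 8 and Bbox1 9. In hypoxia only, the 5 called genes were Ccno, Cdc20b, Deup1, Stil and Shisa8. None of the genes and list medians followed through these alternatives reversed. Bcl2l1 and the goblet list were not among them. With hypoxia libraries only, Bcl2l1 changed from −0.20 to 0.0955 and the goblet median from 0.65 to −0.30. The cause of these shifts was not tested, beyond fewer libraries or more genes being tested. No paired analysis was possible because the labels carry no replicate number shared between groups. Depth limits genes near 1 CPM, about 12 to 16 counts per library.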

Other observations

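Pi16, a marker of adventitial fibroblasts, had 29.3, 30.3 and 30.98 CPM in high normoxia and 28.9 and 35.2 CPM in high hypoxia lungs, against 15.5 through 19.4 to 22.1 CPM in low lungs (log2 difference 0.64 ± 0.10). Vehicle lungs ranged from 21.7 to 34.0 CPM and so overlapped the high lungs. The neutrophil chemokine Cxcl5 had 4.07, 2.15 and 4.88 CPM in high normoxia and 1.91 and 3.03 CPM in high hypoxia lungs, against 0.489 through 0.947 to 1.65 CPM in low lungs (1.64 ± 0.29), and vehicle lungs ranged from 0.337 to 3.06 CPM. Of 10 tested neutrophil genes none was called, with a median of 0.45, and the summed level of all 12 on the list was 224 to 612 CPM in high, 134 to 331 CPM in low and 200 to 422 CPM in vehicle lungs. Retnla, a secreted protein of type 2 responses, had 142 to 591 CPM in high and 65.1 to 317 CPM in low lungs (1.33 ± 0.44, not called). These genes were chosen after their values were seen.

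The heat shock gene Hspa1a, which has a near-identical copy, had 1.99 to 31.3 CPM in high lungs, 3.196 to 161 CPM in low lungs and 1.57 to 6.603 CPM in vehicle lungs. It rose under ABT-263 (2.30 ± 0.52, edgeR adjusted p = 0.0289) without separating high from low lungs (−0.86 ± 1.003). Its highest value was in a low lung and the next, 31.3 CPM, in a high lung, both from hypoxia.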
